A study of Prunus persica with 16 samples.

Results

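Hydrogen cyanamide (HC) was compared with no treatment in buds of the peach cultivar TropicBeauty at 3 days after spraying. The comparison rested on 8 of the study's 16 libraries, 4 from HC-treated trees and 4 from untreated trees. It took in 14531 of the 26873 gene identifiers in the deposited matrix, those with a value of at least 1 FPKM (fragments counted per unit of transcript length and of sequencing depth) in at least 4 of these 8 libraries. The trees were 5 years old and stood on Floridaguard rootstock in an orchard. The cultivar needs 150 chilling hours, of which 11 had been met when the HC trees were sprayed with 1% (v/v) HC together with 0.15% (v/v) of a surfactant. No surfactant is named for the untreated trees, so the effects of HC and of surfactant cannot be told apart. The 7-day groups, again 4 libraries each, came from the same treatments. Only 4 trees of each treatment are named, which would put both days on the same trees. The fits treat the libraries as independent.

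Buds of temperate fruit trees stay dormant through winter and resume growth after enough cold. HC is sprayed in orchards of warm regions to replace part of that cold and to bring bud break forward. It is known to inhibit catalase, an enzyme that removes hydrogen peroxide, and bud responses to it have been described in terms of oxidative stress, respiration and hormones. None of the gene identifiers matched a gene of the reference table, which holds 26412 peach genes, so the genes below carry their identifiers alone. Gene groups by function and marker genes of bud tissues could not be looked up for the same reason, and the labelled tissue was not checked against markers. A bud is a mixture of cell types, in which fewer cells of a type and less RNA per cell cannot be told apart.

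Sequencing depth, estimated from the spacing of low FPKM values, was uneven. The control libraries of 3 days held about 3.59, 1.43, 11.0 and 13.3 M reads (M, mega), and the HC libraries 15.2, 6.41, 22.1 and 5.89 M reads. Control replicate 2 was the shallowest and listed 8667 genes above 0, against 13366 to 18271 in the other 7 libraries. Thinned by calculation to 1.43 M estimated reads, those 7 libraries would list 13023 to 16602 genes, and control replicate 2 8629. The cause of this difference was not tested. At 7 days the control libraries held 0.556 to 9.01 M reads and the HC libraries 2.61 to 16.7 M reads. The plot of genes against reads places control replicate 2 of 3 days below every other library, the shallower 7-day control included.

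**Figure D1:**
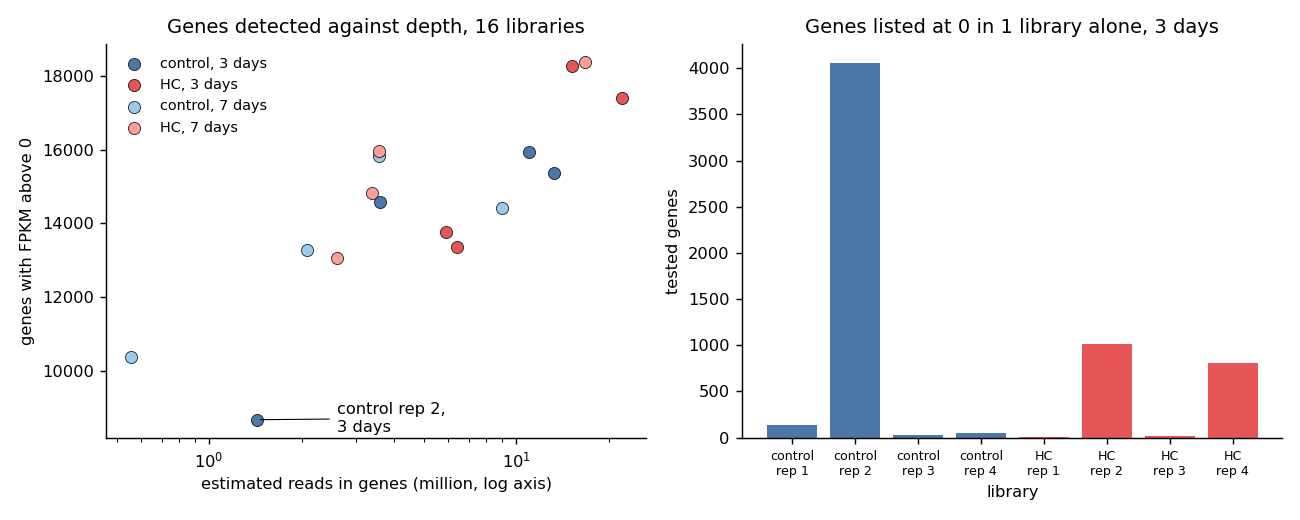
Left, estimated reads of each of the 16 libraries (log axis) against the number of genes listed above 0. Right, for each of the 8 libraries of 3 days, the number of tested genes at 0 in it and at 1 FPKM or more in the other 3 of its group. Control replicate 2 stands at 4060 genes and HC replicates 2 and 4 at 1018 and 805, while the other 5 lie between 2 and 141.

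In buds of 3 days, the levels of 323 genes differed after HC, 2.22% of the genes tested. HC buds had higher levels of 190 genes (1.31%) and lower levels of 133 (0.915%). Among these called genes the rises were larger than the falls: the median log2 fold change was 2.79 (median SE 0.55) among the higher genes and -1.82 (median SE 0.36) among the lower ones. The higher genes were also less abundant, with a median over genes of 66.8 FPKM against 149 FPKM for the lower genes and 13.2 FPKM for all genes tested. The test was limma with a Benjamini-Hochberg adjusted p under 0.05, on log2(FPKM + 1) values, a scale that understates the change of low genes. Called genes had a median absolute log2 fold change of 2.87 below a mean log2(FPKM + 1) of 2 and 1.08 from 8 upwards. The rises and falls were not compared at equal level. Control replicate 2 was at 0 for 87 of the 190 higher genes, and the other controls for 43 to 55. Of all 14531 tested genes, 6104 were at 0 in control replicate 2 and 470 to 1144 in the other controls.

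Of the 323 changed genes, 293 (90.7%) differed by at least 1 on the log2 scale, 177 (54.8%) by at least 2 and 52 (16.1%) by at least 4. The largest class held 44 higher genes and 8 lower ones. The smallest change called was 0.57 on the log2 scale. Over all 14531 genes the central 90% of log2 fold changes lay between -1.34 and 1.83, with a median absolute change of 0.58 and a median SE of 0.74. A gene of typical precision therefore had an SE larger than its measured change. Of all tested genes 4041 (27.8%) had an absolute log2 fold change of at least 1 and 797 (5.48%) one of at least 2. Among these, 3748 and 620 were not called.

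**Figure D2:**
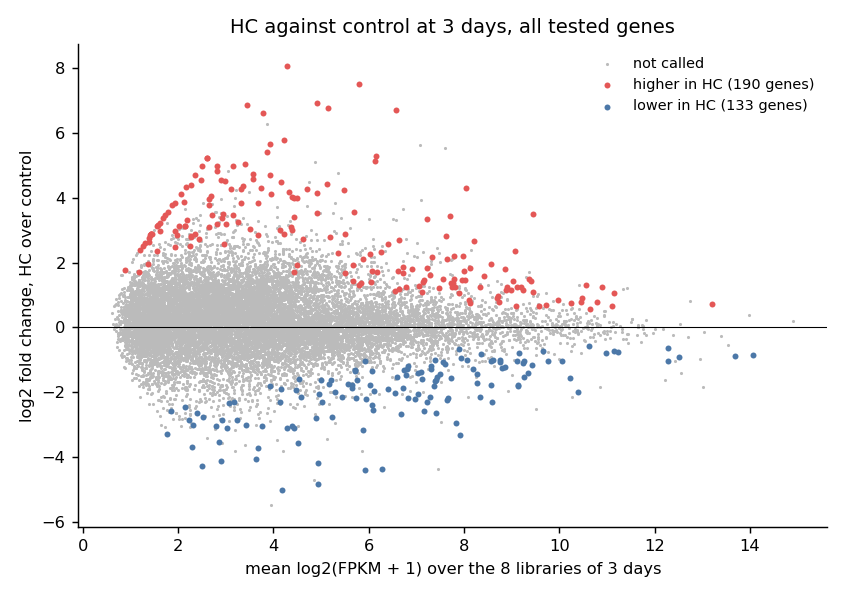
Log2 fold change of HC over control at 3 days against the mean log2(FPKM + 1) over the 8 libraries, 1 point per tested gene. The 190 higher genes (red) reach 8.07 and include many of low level, and the 133 lower genes (blue) reach -5.03. Grey points are genes not called.

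A simpler measure, the lack of any overlap between the 4 HC and the 4 control values, held for 1384 tested genes (9.52%), 797 with HC above (5.48%) and 587 with HC below (4.04%). Among the changed genes it held for 182 of the 190 higher and 130 of the 133 lower genes. Thus 1072 genes with separate groups were not called by limma. Both measures use the same values, so neither is separate evidence for the other.

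What could be called depended on the level of the gene. Among the 3192 genes with a mean log2(FPKM + 1) under 2, 28 (0.877%) were called, 26 of them higher, and the median half-width of the 95% confidence interval was 1.65. Among the 667 genes at a mean of 8 or more, 76 (11.4%) were called, 39 of them higher, and the half-width was 0.45. The genes called in the lowest class had a median absolute log2 fold change of 2.87, and those of the highest class 1.08. Below a mean of 4 there were 78 higher and 22 lower genes, and from 4 upwards 112 higher and 111 lower genes. Without control replicate 2 of 3 days the counts were 51 higher and 16 lower below 4, and 119 higher and 91 lower from 4 upwards.

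**Figure D3:**
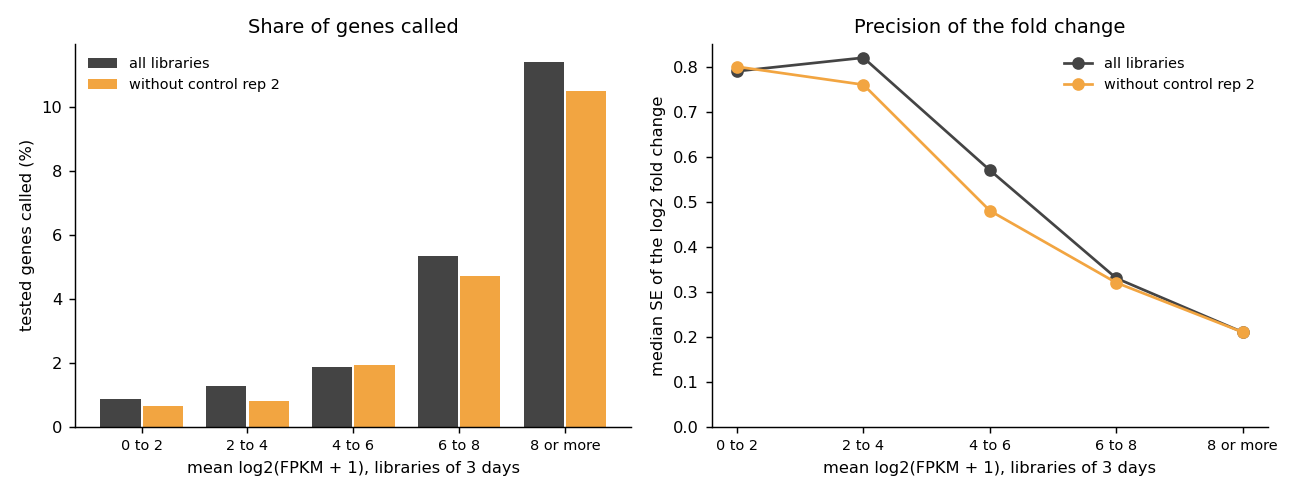
Percent of tested genes called (left) and median SE of the log2 fold change (right) in 5 classes of mean log2(FPKM + 1), with all libraries and without control replicate 2 of 3 days. Calls rise from 0.877% in the lowest to 11.4% in the highest class, where the SE is 0.79 and 0.21, and leaving the library out takes calls from 1.28% to 0.815% in the class from 2 to 4.

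The largest rise was that of Prupe.4G155200. Its FPKM was 652, 189, 198 and 431 in the HC libraries and 0, 1.03, 0 and 0 in the controls, where the single value above 0 stood for about 1 read. The groups were far apart, with a log2 fold change of 8.07 (SE 0.87, adjusted p = 8.6e-05). The next in size, Prupe.I000300, reached 1312, 537, 406 and 1090 FPKM in HC buds and 19.0, 0, 0 and 13.7 FPKM in control buds. The controls thus fell into a pair with signal and a pair with none, all far below the HC libraries, and the log2 fold change was 7.50 (SE 1.13, adjusted p = 0.0015).

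The largest fall among genes with separate groups was that of Prupe.1G251600, which had 45.2, 158, 178 and 85.2 FPKM in the controls and 0, 0.76, 6.52 and 6.53 FPKM in HC buds. Every control library stood above every HC library, with a log2 fold change of -5.03 (SE 0.73, adjusted p = 0.00089). Prupe.1G327500 had 193, 281, 47.1 and 265 FPKM in the controls and 3.50, 16.6, 12.5 and 0 FPKM after HC, a log2 fold change of -4.83 (SE 0.84, adjusted p = 0.0043). Control replicate 3 was the lowest of its group but still above every HC library.

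Among the most abundant changed genes the changes were small and the groups tight. Prupe.6G255100 had 7602, 5856, 7499 and 8932 FPKM in the controls and 11310, 13894, 12372 and 11249 FPKM in HC buds, a log2 fold change of 0.72 (SE 0.14, adjusted p = 0.0081). Prupe.7G218200 had 1664, 1580, 1603 and 1386 FPKM in the controls and 2833, 4220, 3662 and 2621 FPKM after HC. Its log2 fold change was 1.07 (SE 0.14, adjusted p = 0.00045).

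Both of the most abundant genes that fell lost less than a log2 unit. Prupe.3G287000 had 25254, 16844, 28694 and 23493 FPKM in the controls and 8695, 15264, 14627 and 13378 FPKM in HC buds, a log2 fold change of -0.87 (SE 0.19, adjusted p = 0.021). Control replicate 2 was the control nearest to the HC libraries, and the call held in 22 of 29 alternatives. Prupe.1G134900 had 19729, 16340, 19979 and 16104 FPKM in the controls and 6447, 12503, 10871 and 10043 FPKM after HC, with HC replicate 1 the lowest. Its log2 fold change was -0.89 (SE 0.17, adjusted p = 0.0095).

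**Figure D4:**
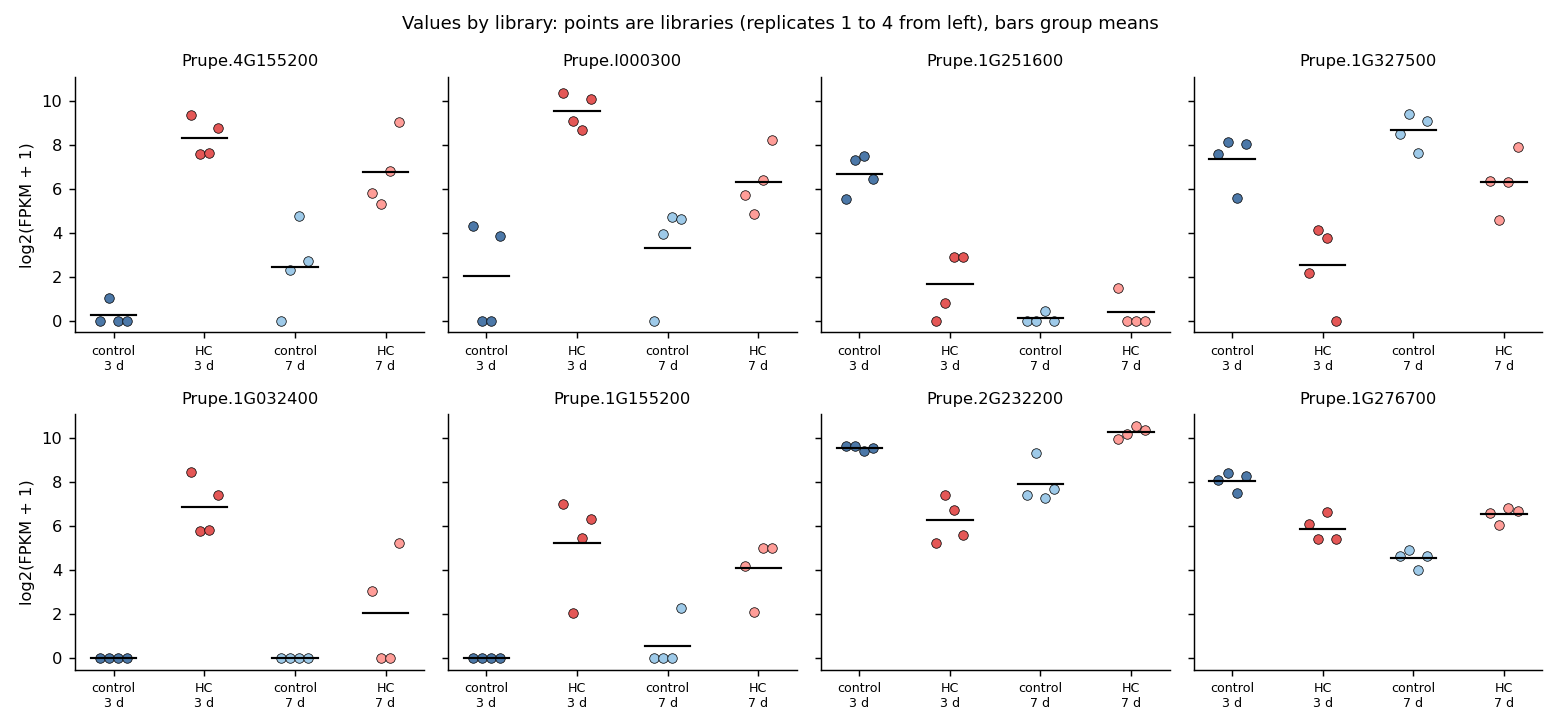
FPKM of 8 genes in each of the 16 libraries, by treatment and day, on an axis of log2(FPKM + 1). Prupe.1G032400 and Prupe.1G155200 are at 0 in all 4 controls of 3 days and above 0 in all 4 HC libraries, and Prupe.2G232200 and Prupe.1G276700 are lower after HC at 3 days and higher at 7 days.

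Some genes were listed at 0 in every library of 1 group. With on defined as at least 1 FPKM in all 4 libraries and off as 0 in all 4, 34 genes were on in HC and off in control buds, and 0 genes were the reverse. The reverse needs at least 1 FPKM in control replicate 2, the shallowest of the 8 libraries. limma called 24 of the 34, or 70.6%, against 2.22% of all genes. This share is no evidence of its own, since the same values chose the genes. Their mean level in HC buds ranged from 2.21 to 158 FPKM, with a median of 7.80 FPKM. Read numbers could be estimated for 31 of the 34. Over these genes and the 4 HC libraries the estimates ran from 5 to 1949 reads with a median of 75, and 30 of the 31 genes had at least 10 reads in every HC library.

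The gene with the highest level among them, Prupe.1G032400, had 351, 54.6, 56.2 and 171 FPKM in HC buds, or about 1128, 71, 249 and 201 reads. HC replicates 1 and 4 were the highest. Prupe.1G155200 had 126, 3.21, 42.9 and 80.1 FPKM, with HC replicate 2 far below the other HC libraries at about 20 reads. Both were listed at 0 in the 4 controls, so no fold change is given.

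The counts of on and off genes moved with the zeros of the libraries. Of the tested genes 6104 were listed at 0 in control replicate 2, and 44 and 72 in HC replicates 1 and 3, the deepest libraries of the 8. Without control replicate 2 there were 40 genes on in HC and 7 off in HC. All 7 were at 0 in control replicate 2, and 0 of them had passed the filter for testing. Leaving out another library gave 35 to 94 genes on in HC and 0 to 4 genes off in HC, the highest count being 94 without HC replicate 2. With on defined as at least 5 FPKM, 11 genes were on in HC, and with off defined as under 0.1 FPKM there were 38, with 0 genes off in HC in both cases. At least 1 FPKM in all 4 HC libraries and in no control library was found for 51 genes, of which 30 were called. The reverse was found for 10 genes, of which 2 were called. Of all tested genes 2.22% were called. The 51 and the 10 genes were chosen by the values that were tested, so their calls are no evidence of their own. The part of depth in the counts of on and off genes was not tested.

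In the 7-day libraries, which had no part in choosing the 34 genes, they were listed above 0 more often after HC than in control buds. The control libraries of 7 days listed 3, 13, 9 and 8 of the 34 above 0, and the HC libraries 32, 18, 11 and 16. Over the whole matrix these control libraries listed 10356 to 15834 genes above 0 and the HC libraries 13052 to 18378. HC replicate 1, with 32, was the deepest library of that day at 16.7 M reads. Control replicate 2 overlapped with HC replicate 3, at 13 and 11 genes, so the counts alone did not separate the groups. Their summed level did: it was 30.1, 63.1, 37.3 and 31.7 FPKM in the controls of 7 days and 159, 83.3, 113 and 218 FPKM in HC buds of 7 days. At 3 days the sum had been 870, 345, 340 and 682 FPKM in HC buds. Prupe.1G032400 had 7.40, 0, 0 and 36.2 FPKM in HC buds of 7 days and 0 in all 4 controls. Prupe.1G155200 had 17.3, 3.22, 31.6 and 31.4 FPKM after HC and 0, 0, 0 and 3.79 FPKM in the controls.

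Of the 34 genes, 33 are in the authors' deposited table for 3 days, each with a control value of 0. In the authors' deposited table, an adjusted p of exactly 1 stands beside 32 of these and an adjusted p under 0.05 beside 1. The same holds beyond them: in the authors' deposited table, an adjusted p of 1 stands beside 2056 of the 2061 genes with a control value of 0 and 512 of the 512 genes with an HC value of 0. It stands beside 6 of the 17063 genes with both values above 0. Genes at 0 in a whole group were therefore nearly absent from the calls of that table.

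Control replicate 2 of 3 days affected both the centre and the spread of the comparison. For 4060 tested genes (27.9%) it was at 0 while the other 3 controls had at least 1 FPKM. The median over genes of the SD among the 4 controls was 1.09 on the log2 scale, and 0.52 without control replicate 2. The HC group had 0.59, and 0.46 to 0.62 on leaving out 1 of its libraries. With all libraries the median log2 fold change over tested genes was 0.16 and 58.0% were above 0. Without control replicate 2 the median was -0.05 and 46.9% were above 0. The shift was largest among genes with a mean log2(FPKM + 1) from 2 to 4, of which 51.2% were at 0 in this library. Their median log2 fold change was 0.33 with it and -0.08 without it. Under a mean of 2, 82.1% of the genes were at 0 in this library, and their median was 0.20 with it and -0.12 without it.

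Leaving it out gave 277 changed genes (1.91%), 170 higher and 107 lower, of which 229 were also among the 323. The 94 genes lost were 51 higher and 43 lower ones, and none changed sign. They stood near the threshold, with a median adjusted p of 0.083 and a highest of 0.15 without the library. At 0 in control replicate 2 were 34 of the 94, 53 of the 229 kept and 6104 of all 14531 tested genes. The median absolute log2 fold change of the 94 was 2.46 with the library and 2.20 without it.

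The fit without control replicate 2 also gained 48 genes. Control replicate 2 lay outside the range of the other 3 controls in all 48, in 56 of the 94 lost and in 131 of the 229 kept. No such count is given for all tested genes. The choice of the 48 by this library's removal favours such genes, so these values are a description. Their median SE fell from 0.68 with the library to 0.38 without it, and their median absolute log2 fold change went from 1.42 to 1.74.

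A gene lost in this way was Prupe.8G000400, at 0, 0, 20.7 and 0.24 FPKM in the controls and 13.2, 25.1, 22.3 and 50.8 FPKM in HC buds. Its groups overlapped, since control replicate 3 lay above HC replicate 1. The log2 fold change was 3.50 (SE 0.76, adjusted p = 0.017), and 3.11 (adjusted p = 0.069) without control replicate 2. Prupe.1G175800 had 107, 34.2, 33.1 and 69.0 FPKM in the controls and 268, 166, 159 and 228 FPKM after HC, with no overlap. Its log2 fold change was 1.87 (adjusted p = 0.020) with control replicate 2 and 1.66 (adjusted p = 0.059) without it.

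On the lower side Prupe.2G193100 had 125, 266, 124 and 167 FPKM in the controls and 25.8, 22.2, 81.9 and 69.1 FPKM in HC buds, and control replicate 2 was its highest value. The log2 fold change was -1.91 (adjusted p = 0.016), and -1.67 (adjusted p = 0.051) without that library. Prupe.1G422200 likewise peaked in control replicate 2, with 64.2, 148, 37.7 and 26.2 FPKM in the controls and 8.77, 0, 12.6 and 13.5 FPKM after HC. Its log2 fold change of -3.09 (adjusted p = 0.018) became -2.63 (adjusted p = 0.058). Over 29 alternatives the adjusted p ran from 0.00012 to 0.14 for Prupe.8G000400, from 6.6e-05 to 0.088 for Prupe.1G175800, from 0.0049 to 0.072 for Prupe.2G193100 and from 0.0062 to 0.13 for Prupe.1G422200.

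Control replicate 2 was not the library whose removal cost the most calls. Without HC replicate 1 there were 178 changed genes and without HC replicate 4 188, whereas leaving out another of the 8 libraries gave 230 to 280. Of the 323 genes, 152 (47.1%; 93 higher and 59 lower) were called whichever of the 8 libraries was left out.

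Weighting the libraries by their own scatter gave control replicate 2 a weight of 0.12, the lowest of the 8, and HC replicates 1 and 3 weights of 3.12 and 4.07. In that fit 889 genes changed (6.12%), 533 higher and 356 lower, including 315 of the 323. With the same weighting and control replicate 2 left out, an alternative added after the data had been seen, 837 genes changed. Weighting thus raised the count with or without this library.

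The authors' deposited table for 3 days calls 1731 of 19636 genes (8.82%) at an adjusted p under 0.05, 841 higher and 890 lower after HC. Of the 323 genes called here 320 are in the authors' deposited table, all 320 with the same sign. Both called 280 genes, which are 86.7% of the 323 and 16.2% of the 1731. A further 1216 calls of the authors' deposited table were tested here and not called. All 1216 had the same sign in both, with a median absolute log2 fold change of 1.36 in the authors' deposited table and 1.33 here, and a median SE here of 0.69. The median sizes were thus close in both sources. How the deposited p-values were made is not stated in the labels or headers.

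By 7 days most of the difference seen at 3 days was smaller. Among the 190 genes higher at 3 days the median log2 fold change went from 2.79 to 0.39, with 144 (75.8%) above 0 at 7 days. Over all tested genes the 7-day median was 0.26 and 64.1% were above 0. Among the 133 genes lower at 3 days the median went from -1.82 to 0.03, with 64 (48.1%) below 0, against 35.7% of all tested genes. The genes were chosen on the 3-day libraries, and the part of that choice in the smaller 7-day values was not tested.

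A change as large as 50% of the 3-day change, in the same direction, was kept by 37 of the 190 higher genes (19.5%) and 25 of the 133 lower genes (18.8%), beside 36.6% of all tested genes, most of which changed little at 3 days. The opposite direction at 50% or more was reached by 4 higher genes (2.11%) and 26 lower genes (19.5%), beside 31.5% of all tested genes. A small 3-day change is easily matched to 50% in either direction, so the shares of all genes are no baseline for the changed genes.

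Changes between the days are a description here, since the 3-day libraries that chose the genes enter them. That choice favours moves back from the 3-day values. Among the 190 higher genes the median level, as log2(FPKM + 1), was 2.91 in control and 6.65 in HC buds at 3 days, then 4.86 and 5.84 at 7 days. Gene by gene the median change from 3 to 7 days was 0.62 in control and -1.09 in HC buds. limma called 58 of the 190 as rising and 5 as falling in control buds, and 7 and 63 in HC buds. Among the 133 lower genes the median level was 7.74 in control and 5.87 in HC buds at 3 days, and 7.57 and 7.34 at 7 days. Gene by gene the median change was -0.06 in control and 1.65 in HC buds. Here 18 of the 133 were called as rising and 27 as falling in control buds, and 90 and 7 in HC buds. Over all 14531 tested genes the 4 medians were 3.28, 3.58, 3.28 and 3.69. Of these genes 542 were called as rising and 695 as falling in control buds, and 489 and 440 in HC buds.

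Expressed as a share of all FPKM in a library, the 190 higher genes took 2.49% to 2.98% in the controls and 6.36% to 8.13% in HC buds at 3 days. At 7 days they took 4.12% to 4.64% in the controls and 5.09% to 5.65% in HC buds, so that the 7-day groups were closer but did not overlap. The 133 lower genes took 9.20% to 10.7% in the controls and 3.76% to 5.80% in HC buds at 3 days, and 11.2% to 13.6% in the controls and 8.70% to 10.3% in HC buds at 7 days. The 7-day groups again did not overlap, although the median gene of this list was no longer lower. Prupe.3G287000 and Prupe.1G134900, its most abundant genes, together took 4.81% to 6.41% in the controls and 3.11% to 4.17% in HC buds at 7 days. Without them the list took 6.44% to 7.18% in the controls and 5.57% to 6.34% in HC buds, still without overlap.

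**Figure D5:**
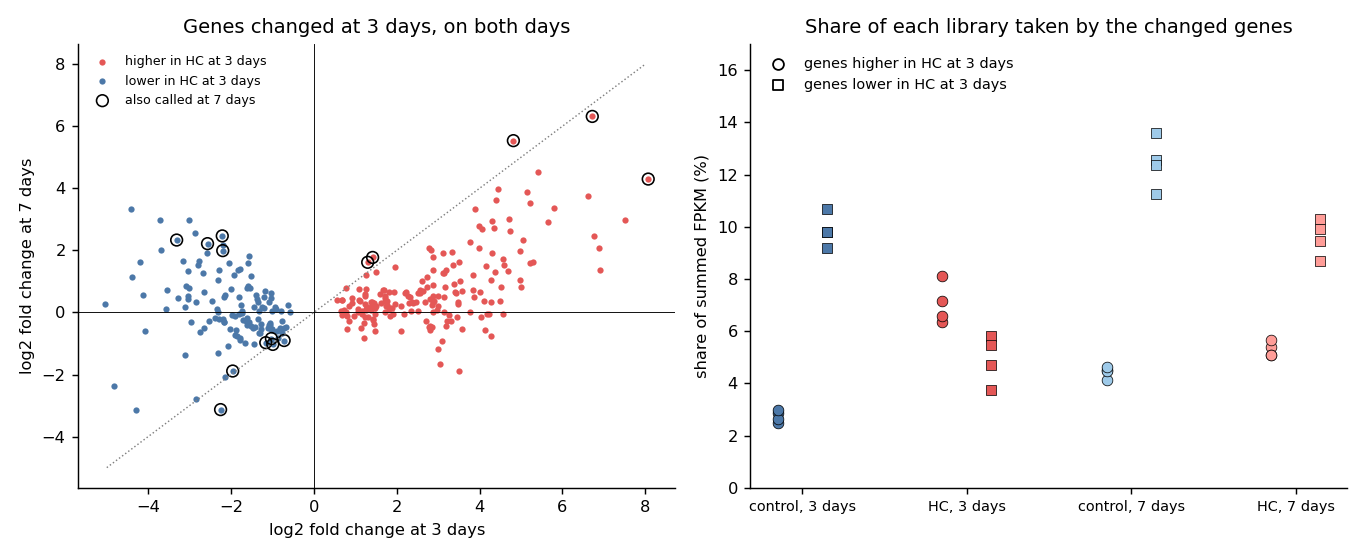
Left, log2 fold change of HC over control at 3 days against that at 7 days for the 323 changed genes. Right, share of all FPKM held by the 190 higher and the 133 lower genes in each of the 16 libraries: the higher genes go from 6.36% to 8.13% in HC buds at 3 days to 5.09% to 5.65% at 7 days.

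Tested at 7 days over the same 14531 genes, limma called 51 (0.351%), 33 higher (0.227%) and 18 lower (0.124%). Of the 190 genes higher at 3 days, 5 (2.63%) were higher again and 0 were lower. Of the 133 genes lower at 3 days, 6 (4.51%) were lower again and 4 (3.01%) were higher. The counts of this overlap are small and unstable. Without HC replicate 4 of 7 days they were 1, 0, 1 and 0, and without control replicate 2 of 7 days 12, 0, 8 and 9. Under a fit on estimated reads they were 3, 3, 26 and 5. In the same order, these fits called 304, 312 and 842 genes at 3 days, against the 323 above.

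The difference between the effects at 7 and at 3 days passed the test for 79 genes (0.544%). The effect was the higher at 7 days for 56 of them and the lower for 23. Among them were 17 of the 190 higher genes, all with a lower effect at 7 days, and 40 of the 133 lower genes, all with a higher one. These last counts describe genes chosen on the same 3-day libraries and are no test of them.

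Prupe.4G017000 kept its rise. It had 0, 1.62, 0 and 0.17 FPKM in control buds and 84.2, 10.9, 44.1 and 41.0 FPKM in HC buds at 3 days, and 0 in all 4 controls and 73.5, 15.1, 81.2 and 45.9 FPKM in HC buds at 7 days. HC replicate 2 was the lowest HC library on both days and still above every control. The log2 fold change at 3 days was 4.82 (SE 0.69, adjusted p = 0.00078), and the 7-day effect had an adjusted p of 0.0011.

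Prupe.4G155200, the gene with the largest rise at 3 days, had 0, 3.96, 26.2 and 5.55 FPKM in control buds and 54.8, 39.2, 110 and 529 FPKM in HC buds at 7 days. HC replicate 4 stood far above the others, and the groups did not overlap. The 7-day log2 fold change was 4.3 (SE 0.87, adjusted p = 0.040), a call that held in 12 of 28 alternatives, with adjusted p from 0.023 to 0.67.

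Prupe.8G195800 was lower after HC on both days while its level rose in both treatments. It had 998, 1011, 1147 and 982 FPKM in control and 367, 459, 597 and 450 FPKM in HC buds at 3 days, and 2284, 1758, 2580 and 2334 FPKM against 1015, 1411, 1128 and 1003 FPKM at 7 days. HC buds of 7 days thus reached about the control level of 3 days. Its log2 fold change was -1.16 (SE 0.16, adjusted p = 0.00068) at 3 days and -0.97 (SE 0.16, adjusted p = 0.017) at 7 days. The 7-day call held in 22 of 28 alternatives, with adjusted p from 3.7e-06 to 0.23. Between the days it rose by 1.10 on the log2 scale in control buds (adjusted p = 0.00026) and by 1.29 in HC buds (adjusted p = 5.3e-05).

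Prupe.2G010400 took the same course at a higher level, with 6877, 6138, 8165 and 7313 FPKM in control and 2272, 4456, 3991 and 3632 FPKM in HC buds at 3 days. At 7 days it had 14210, 10088, 14268 and 12705 FPKM in control and 6165, 7967, 8027 and 6403 FPKM in HC buds. The log2 fold change was -1.03 (SE 0.17, adjusted p = 0.0029) at 3 days and -0.84 (SE 0.17, adjusted p = 0.041) at 7 days. The 7-day call held in 13 of 28 alternatives, with adjusted p from 0.009 to 0.35.

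In contrast Prupe.2G232200 changed direction. It had 807, 809, 678 and 751 FPKM in control and 36.8, 172, 107 and 47.6 FPKM in HC buds at 3 days, a log2 fold change of -3.31 (SE 0.43, adjusted p = 0.00045). At 7 days it had 172, 644, 157 and 204 FPKM in control and 995, 1170, 1497 and 1329 FPKM in HC buds, a log2 fold change of 2.33 (SE 0.43, adjusted p = 0.027). Control libraries of 7 days were all below those of 3 days, with replicate 2 far above the other 3, and HC libraries of 7 days were all above the controls of 3 days. The 7-day call held in 20 of 28 alternatives, with adjusted p from 0.0024 to 0.12. The effects differed by 5.65 (SE 0.61, adjusted p = 0.00022), and this difference was called in 28 of 28. The gene was chosen for opposite calls at 3 and 7 days, so this difference is no evidence of its own.

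Prupe.1G276700 changed direction by another route. It had 269, 343, 183 and 307 FPKM in control and 66.8, 41.1, 97.4 and 41.1 FPKM in HC buds at 3 days, and 23.8, 28.8, 15.2 and 23.8 FPKM against 95, 64.6, 112 and 103 FPKM at 7 days. Its level fell by 3.53 on the log2 scale in control buds (adjusted p = 1.5e-06), while HC buds changed by 0.66 (adjusted p = 0.30). The log2 fold change was -2.20 (SE 0.33, adjusted p = 0.0011) at 3 days and 1.99 (SE 0.33, adjusted p = 0.017) at 7 days. The 7-day call held in 23 of 28 alternatives, with adjusted p from 0.0084 to 0.13.

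Among the largest falls at 3 days, Prupe.1G251600 reached 0, 0, 0.35 and 0 FPKM in control and 1.85, 0, 0 and 0 FPKM in HC buds by 7 days. The loss seen after HC at 3 days was thus seen in the controls 4 days later, where its level fell by 6.58 on the log2 scale (adjusted p = 1e-05). Prupe.1G327500 had 364, 672, 196 and 539 FPKM in control and 82.0, 22.8, 77.8 and 239 FPKM in HC buds at 7 days. HC replicate 4 of 7 days overlapped the controls, and the 7-day log2 fold change was -2.36 (adjusted p = 0.30). In HC buds it rose by 3.77 on the log2 scale between the days (adjusted p = 0.0098).

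At 7 days the level of Prupe.I000300 was 52.0, 27.8, 84.4 and 299 FPKM in HC buds and 0, 14.6, 25.3 and 23.8 FPKM in control buds, a log2 fold change of 2.98 (adjusted p = 0.34). Among the abundant genes, Prupe.7G218200 had 2544, 2169, 2314 and 2483 FPKM in control and 2158, 2155, 2735 and 2650 FPKM in HC buds at 7 days. These groups overlapped, and its effect at 7 days was lower than at 3 days by -1.05 on the log2 scale (SE 0.20, adjusted p = 0.023). At 7 days Prupe.6G255100 lay between 8115 and 13994 FPKM in control buds and between 10831 and 12275 FPKM in HC buds, with a log2 fold change of 0.09 (adjusted p = 0.88).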

How the data were processed

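Trimmomatic, STAR 2.5.2a and RSEM 1.2.31 are the tools that appear, with no role stated, per the submitters' processing notes. As for the build of the genome, it is not given in the sources used here. Expression came as a deposited matrix with 1 column per library, in FPKM as far as its values show. The authors also deposited, per day, their own comparison of HC with control as a log2 fold change with an adjusted p-value, and a signal value for each treatment on a scale that no header states. These were used only where the text names that table, and the signal also to estimate depth.

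limma 3.58.1 (R 4.3.3, statmod 1.5.0) was fitted to log2(FPKM + 1) with a pseudocount of 1 and a mean for each of the 4 groups over all 16 libraries, using empirical Bayes with trend and robust settings. Genes with at least 1 FPKM in at least 4 of the 8 libraries of 3 days were tested, and Benjamini-Hochberg adjustment ran over all 14531 with a threshold of 0.05. Contrasts were HC against control at each day, the difference of these effects, and 7 against 3 days within a treatment. The script was tested on simulated data. Other tables were made with Python 3.11.15.

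Depth was estimated by finding, for each library, the step that turns low FPKM values times a length-like factor per gene into whole numbers. The factor, the deposited signal over summed FPKM, existed for 18510 genes. Within 0.2 of a step, 83.8% to 97.7% of low values were whole, where chance gives 40%. Estimated reads served for depth, for the thinning calculation and for 1 alternative test. They are not independent molecules.

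Named genes are at most 2 that rose and 2 that fell in each of 6 classes: largest change, highest level, on or off, same direction at 7 days, opposite direction at 7 days, and lost without control replicate 2. Genes of the first 2 classes had no overlap between groups, on genes were taken by level, and the last 3 classes by the smallest 3-day p. The genes, lists and tests were chosen with earlier results of these data known. Gene lists by function could not be used, since 0 identifiers matched the reference. Replicate numbers did not pair the samples. Alternatives changed the pseudocount, the filter, the scaling, the weights, the model and the libraries used.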

Additional observations from a re-analysis of the deposited data

Results flagged for a closer look

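Single libraries stood apart from the other 3 of their group, by Dixon's criterion for 4 samples, in 9 of the 82 sets of 4 values examined. Chance meets the criterion in about 1 of 20 sets of normally distributed values. In 4 of the 9 sets the other 3 values were 0, which meets it for any value above 0. For Prupe.4G155200 these were a control of 3 days at 1.03 FPKM, the others being at 0, and an HC library of 7 days at 529.16 FPKM, the others lying between 39.2 and 110. For Prupe.1G251600 they were a control of 7 days at 0.35 FPKM and an HC library of 7 days at 1.85 FPKM, with 0 in the others. Prupe.1G155200 had a control of 7 days at 3.79 FPKM, and Prupe.4G017000 a control of 3 days at 1.62 FPKM, each near or at 0 in the others. Prupe.2G232200 had a control of 7 days at 643.88 FPKM against 157 to 204 FPKM. Prupe.8G000400 had a control of 3 days at 20.7 FPKM, against 0 to 0.24 FPKM, and an HC library of 7 days at 272.39 FPKM, against 177 to 192 FPKM.

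The effect of HC differed between the days, by limma's test of that difference, for 5 of the genes named. The 7-day effect exceeded the 3-day effect by 5.30 on the log2 scale for Prupe.1G251600 (SE 1.03, adjusted p = 0.023, called in 21 of 28 alternatives), by 5.65 for Prupe.2G232200 and by 4.19 for Prupe.1G276700 (SE 0.47, adjusted p = 0.00022), the last 2 called in 28 of 28. For Prupe.7G218200 the difference was -1.05, called in 24 of 28. For Prupe.8G000400 it was -5.38 (SE 1.07, adjusted p = 0.028, called in 13 of 28). The level of Prupe.8G000400 rose between the days by 8.37 on the log2 scale in control buds (adjusted p = 1.2e-06), to 1215, 356, 1174 and 632 FPKM, and by 2.99 in HC buds (adjusted p = 0.022), to 189, 272, 192 and 177 FPKM. All 5 genes had been chosen on the 3-day libraries that enter the difference. Prupe.2G232200 and Prupe.1G276700 had also been chosen for an opposite call at 7 days, so their differences are no evidence of their own.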

How the results depend on the processing

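The 323 genes changed at 3 days became 889 with library quality weights, 842 with voom on estimated reads, 170 without trend and robust settings, and 837 with quality weights and control replicate 2 of 3 days left out, the last chosen after seeing the data. Leaving out each of the 16 libraries gave 178 to 369. The 51 genes of 7 days became 84 with a pseudocount of 10, 92 with voom, 8 without trend and robust settings, 23 with the replicate number as a replicate block, and 104 without control replicate 2 of 3 days after filtering again, and 5 to 112 on leaving out each library. The 79 differences between days became 39 and 146 with pseudocounts of 0.1 and 10, 229 with quality weights, 221 with voom, 34 without trend and robust settings and 200 with quality weights and without control replicate 2, and 31 to 97 on leaving out each library. The causes were not tested. The median absolute log2 fold change of 0.58 over tested genes became 0.27 with a pseudocount of 10 and ran from 0.47 to 0.69 on leaving out each library of 3 days, and that of changed genes from 1.93 to 2.52. The 34 genes on in HC became 11 at a level of at least 5 FPKM and 35 to 94 on leaving out each library of 3 days, and the 0 genes off in HC became 0 to 7.

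No called effect of a named gene changed sign under any alternative run. Of the values of named genes recomputed at 3 days, 527 stayed on their side of the threshold and 41 lost the call, and at 7 days 120 stayed and 54 lost it. Of the 323 genes, 92 (62 higher and 30 lower) were called in all 29 alternatives other than the added one, counting those that tested the gene. With the replicate number as a block 277 genes changed at 3 days, of which 266 were among the 323. With treatment and replicate number together as the block, the same 323 genes were called, at an estimated correlation within blocks of 0.00. Deviations of same-numbered control and HC libraries of 3 days correlated at 0.01 to 0.05, and 3 of 4 numbers correlated best with themselves. Between the days, same-numbered libraries correlated at -0.02 to 0.02 in control and at -0.03 to 0.10 in HC buds. The median 95% half-width was 1.65 below a mean log2(FPKM + 1) of 2, 1.72 from 2 to 4 and 0.45 from 8 upwards. The part of depth in these widths was not tested. Intervals cover the spread between these libraries.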

Other observations

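By the number that follows Prupe in the identifier, which was not checked against a genome, the share of tested genes called at 3 days ran from 1.53% in group 2 to 3.17% in group 6, beside 2.22% of all tested genes. Group 6 held 42 higher and 22 lower genes among 2020 tested. Of the 22 tested genes whose identifier carries an I in that place, 3 were called, all of them higher. No test of these shares was run.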
